A study of Canis lupus familiaris with 34 samples.

Results

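The ligands and receptors of the tumour necrosis factor (TNF) superfamilies were examined in mitral valve RNA of Cavalier King Charles Spaniels (CKCS). Members were taken by gene symbol, as all TNFSF and TNFRSF genes of the deposited count table together with TNF, LTA, LTB, LTBR, FASLG, CD40, CD40LG, CD27, CD70, NGFR, EDA and EDAR. This gave 39 genes, 18 ligands and 21 receptors, of 22035 gene symbols in all. FAS was not analysed here. The 34 dogs were all CKCS of about 10 years of age. The 19 dogs termed 10y-noCHF (10 females and 9 males) had no congestive heart failure (CHF). Nearly all of them had myxomatous mitral valve disease (MMVD), at ACVIM stage B1 or B2. Stage A, with no structural heart disorder found, was the exception. The 15 dogs termed 10y-MMVD-CHF (6 females and 9 males) had CHF due to MMVD, ACVIM stage C. The comparison asks which genes differ in the valve between dogs of the same breed and age with and without CHF. The dogs were privately owned, the 10y-noCHF group spans dogs with no to marked valve disease, and the ACVIM stage of each dog was not used here.

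TNF superfamily ligands are mostly trimeric proteins on the cell surface that can be shed, and each binds 1 or a few receptors of the matching family. Receptors with a death domain can recruit FADD, TRADD and caspases, most other receptors bind TRAF adaptors and turn on NF-kB, and soluble decoy receptors hold ligand away from the signalling receptors. TNFSF4, known as OX40 ligand, co-stimulates T cells through its receptor TNFRSF4 (OX40) and is made by antigen presenting cells and by activated endothelium.

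Total counts per dog ranged from 46185256 to 82361245, and no file held the same values as another. The markers of valve interstitial cells, the resident fibroblast-like cells, had a mean of 10.3 to 11.6 log2 CPM in all dogs, where CPM is the count per 1e6 counts of a library, and the endothelial markers 4.51 to 6.04. Cardiomyocyte markers ranged from -0.105 to 10.7, so the libraries differed widely in muscle RNA. None of the 10 marker lists differed between the groups (permutation test within each sex, lowest FDR 0.627). In bulk RNA, fewer cells of a type and less RNA per cell cannot be told apart.

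Of the 39 members, 37 had at least 100 counts over all dogs and were tested. LTA, a lymphotoxin, had 28 counts and TNFSF14, a ligand of LTBR and TNFRSF14, had 74, and neither was tested. In edgeR's quasi-likelihood test with a term for sex, p-values were adjusted over all features after Benjamini and Hochberg, and an adjusted value (FDR) under 0.1 counted as a difference. By this rule 1 member differed, against 0.118% of the 19568 features tested. That member was TNFSF4, which was lower in 10y-MMVD-CHF, as were 0.092% of all features. No member was higher by this rule, beside 0.0256% of all features. DESeq2 also called 1 member, beside 0.327% of features. The median log2 fold change of the 37 members was 0.011, beside 0.0076 over all features. Log2 fold changes are given throughout as 10y-MMVD-CHF minus 10y-noCHF, with approximate standard errors (SE). There were 16 members below 0 and 21 above, where 47.4% of all features were below 0, and 23 of the 37 lay within 0.2 of 0. At an unadjusted p below 0.05 there were 6 members (16.2%), beside 6.31% of all features. Among the 6 was the rare TNFRSF4, which reached 100 counts only through the group where it was higher, so its p supports nothing. With CHF, 3 of the 6 had lower levels and 3, TNFRSF4 included, had higher levels, beside 3.51% and 2.8% of all features.

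**Figure D1:**
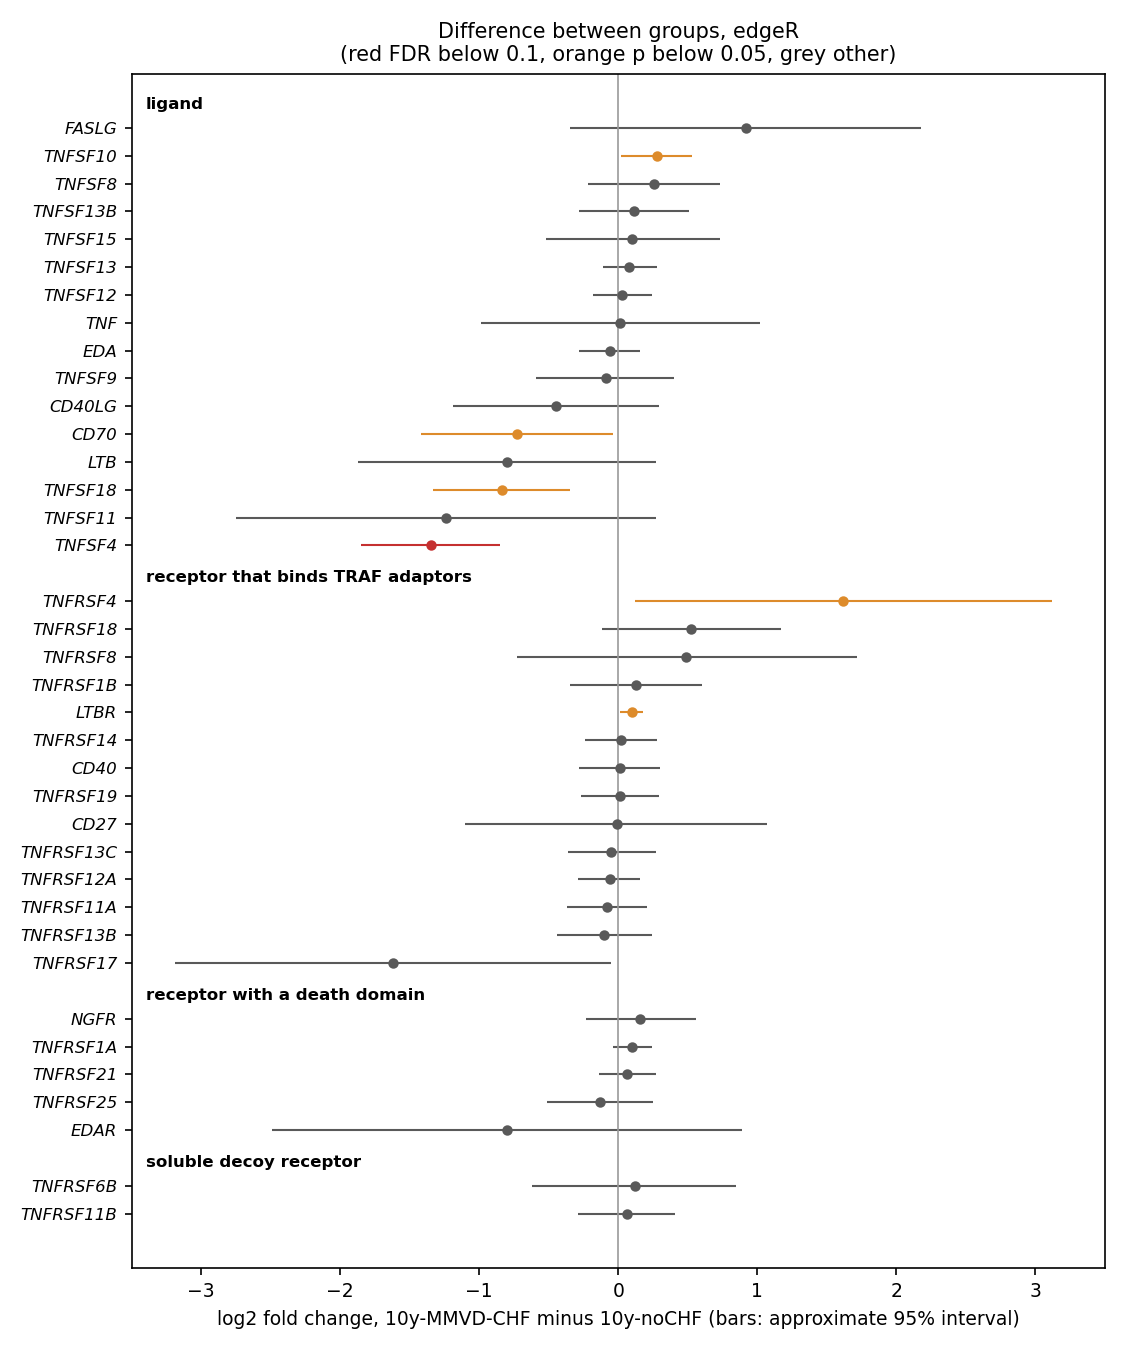
Log2 fold change of each of the 37 tested members (x axis, 10y-MMVD-CHF minus 10y-noCHF) by role, with approximate 95% intervals as bars. TNFSF4 at -1.35 is the 1 member in red, with an edgeR FDR below 0.1, and the rare members EDAR, TNFRSF17, TNFSF11 and TNFRSF4 have the widest intervals.

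TNFSF4 was lower in valves of dogs with CHF. In the 15 10y-MMVD-CHF dogs its level was 0.41 CPM at the lowest, 2.07 at the median and 4.99 at the highest. In the 19 10y-noCHF dogs the lowest level was 2.1 CPM, the median 5.29 and the highest 10.6. The ranges overlapped, but every one of the 15 dogs with CHF was under the median of the other group, the 8 lowest dogs of the 34 all had CHF, and the 10 highest dogs all lacked it. The means were 2.37 ± 1.41 CPM (SD, n = 15) and 5.52 ± 2.61 CPM (SD, n = 19). The log2 fold change was -1.35 (SE 0.254, approximate 95% interval -1.85 to -0.85, edgeR FDR = 0.0278), which is a fitted fold of 2.55 with sex in the model. DESeq2 gave -1.35 with an FDR of 7.89e-05, and a permutation test of log2 CPM within each sex gave p = 1e-05, the smallest that 100000 resamples can give.

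The difference was present in both sexes. Female 10y-MMVD-CHF dogs had 1.5 ± 0.971 CPM (SD, n = 6) and female 10y-noCHF dogs 4.41 ± 2.19 CPM (SD, n = 10), a log2 fold change of -1.54 (SE 0.419) among females. Male dogs had 2.95 ± 1.39 CPM (SD, n = 9) with CHF and 6.75 ± 2.58 CPM (SD, n = 9) without, a log2 fold change of -1.19 (SE 0.294) among males. Among males all 9 dogs without CHF had at least 3.5 CPM, and the dogs with CHF reached from 1.07 to 4.99 CPM. The interaction of CHF and sex was 0.36 (SE 0.496, edgeR p = 0.479). With either sex alone the edgeR FDR was 0.196 for females and 0.578 for males, so the call rests on both together. TNFSF4 was 0.76 higher in males than in females on the log2 scale (SE 0.247, edgeR p = 0.00402), which did not pass the FDR threshold over all features (FDR = 1). By sex 0 members passed that threshold, beside 0.143% of features, and 3 had an edgeR p below 0.05, beside 2.98%. Without the sex term the difference between groups was -1.21 and the FDR 0.105.

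**Figure D2:**
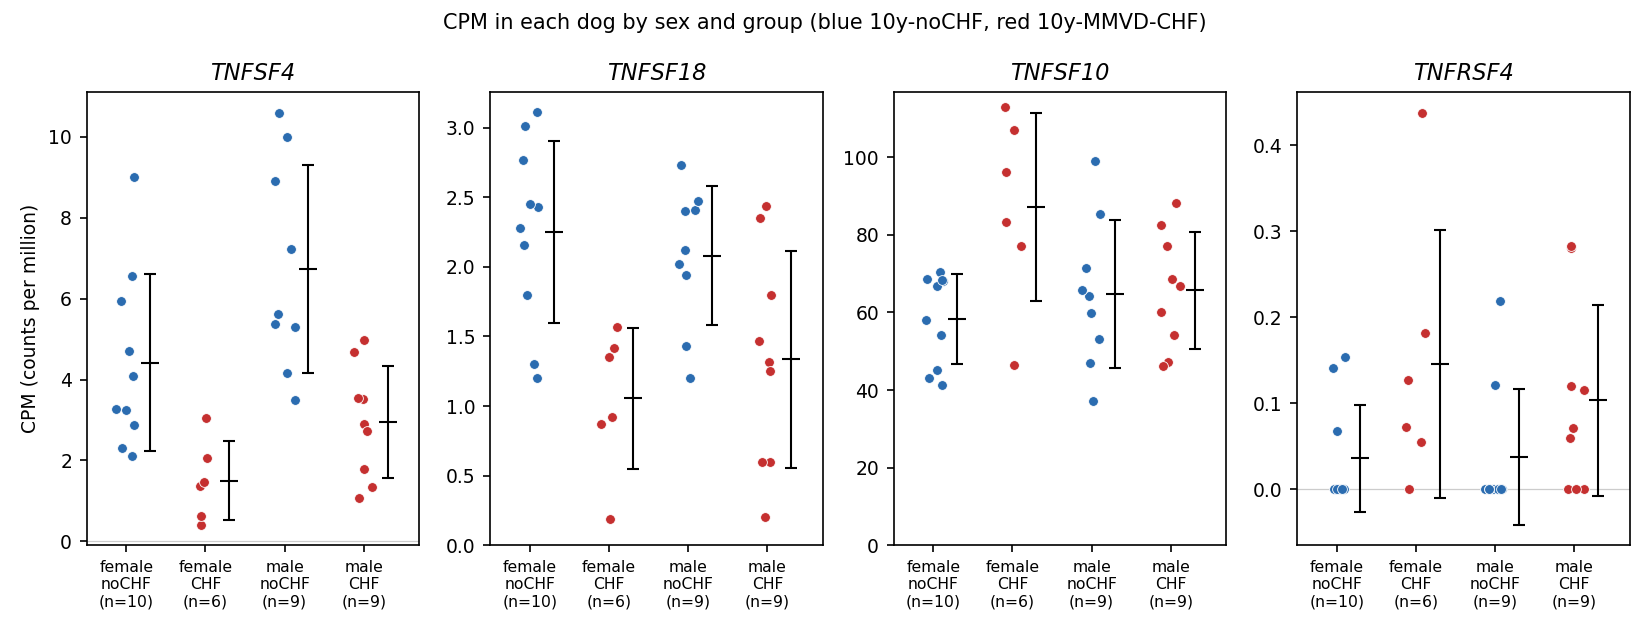
CPM (y axis) of TNFSF4, TNFSF18, TNFSF10 and TNFRSF4 in each of the 34 dogs, split by sex and group, with the mean and SD as a bar beside the points. TNFSF4 lies lower in 10y-MMVD-CHF dogs of both sexes, and for TNFSF10 the means were 87.2 and 58.4 CPM in females and 65.7 and 64.8 CPM in males, with and without CHF.

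The feature counted for TNFSF4 is a human XenoRefSeq alignment on the plus strand of canFam4 chromosome 7, from 25780345 to 25806484. It covers 26140 bases as 1 block, so reads from introns were counted with those from exons. The canine RefSeq gene TNFSF4 lies at 25780205 to 25806523 of the same assembly. No other feature overlapped it, and it held 16 to 776 counts per dog. Of the genes whose features lie within 500000 bases, PRDX6, an antioxidant enzyme, had a log2 fold change of -0.01 at 200174 counts in all, and SUCO had 0.07. CENPL, KLHL20, ANKRD45 and SLC9C2 lay between -0.15 and 0.45, with no edgeR p below 0.05. FASLG, itself a member, had 0.92 (edgeR p = 0.164) on its canine feature at 300 counts in all, and 0.68 on its XenoRefSeq feature. The neighbour that also had a low p was another member, TNFSF18.

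TNFSF18, the ligand of the T cell receptor TNFRSF18 (GITR), starts 72943 bases beyond TNFSF4 on the same strand, at 25879428 to 25888907. In 10y-MMVD-CHF dogs the lowest level was 0.192 CPM, the median 1.32 and the highest 2.44. In 10y-noCHF dogs the levels were 1.2 CPM at the lowest, 2.28 at the median and 3.11 at the highest. The ranges overlapped, with 6 10y-MMVD-CHF dogs below all 10y-noCHF dogs and 6 10y-noCHF dogs above all 10y-MMVD-CHF dogs. On the log2 scale the difference was -0.84 (SE 0.252), at an edgeR p of 0.00205 that did not pass the threshold (FDR = 0.397, DESeq2 FDR = 0.135). In females the log2 fold change was -1.09 (SE 0.348) and in males -0.64 (SE 0.348), with an interaction of 0.45 (edgeR p = 0.369). A permutation test of log2 CPM within each sex gave p = 9e-05. After removal of the group and sex means, Pearson r between the neighbours was 0.126 (permutation p = 0.564) and Spearman rho was 0.288 (permutation p = 0.134) over 34 dogs, with FDR values of 0.792 and 0.284.

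CD70, which binds CD27 on lymphocytes, ranged from 0.0273 to 0.636 CPM with a median of 0.303 in dogs with CHF, and from 0.0348 to 0.946 CPM with a median of 0.356 in 10y-noCHF. The groups overlapped, with 11 of 15 10y-MMVD-CHF dogs below the 10y-noCHF median, at median counts of 16 and 23. The log2 fold change was -0.73 (SE 0.351, edgeR p = 0.0447, FDR = 0.778).

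TNFSF10, known as TRAIL and able to start apoptosis in sensitive cells, was the most abundant ligand per length among the members with canine exon features, at 78.9 ± 22.5 CPM per kb (SD, n = 34). Its levels were 46.2 CPM at the lowest, 77.1 at the median and 113 at the highest in 10y-MMVD-CHF. They were 37.2, 64.3 and 99.1 CPM in 10y-noCHF. Most of both groups overlapped, and 10 of the 15 dogs with CHF exceeded the median of the dogs without. On the log2 scale the difference was 0.28 (SE 0.131, edgeR p = 0.0412, FDR = 0.778). Among females it was 0.58 (SE 0.171) and among males 0.02 (SE 0.167), and the interaction of -0.56 (SE 0.25) had an edgeR p of 0.0318 and an FDR of 0.817. It was the 1 member with an interaction p below 0.05, beside 6.02% of all features, and at the FDR threshold 0% of features had an interaction. The human XenoRefSeq feature of TNFSF10, with 658050 counts against 142363 on the exons, gave a log2 fold change of 0.27.

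No other ligand of T or B cells had an edgeR p below 0.05. TNFSF8, the CD30 ligand, had 6.15 ± 2.64 CPM (SD, n = 15) with CHF and 5.11 ± 2.83 CPM (SD, n = 19) without it, a log2 fold change of 0.26 (SE 0.244). TNFSF9, a co-stimulator of T cells, had -0.09 (SE 0.252), and CD40LG, the helper T cell ligand of CD40, had -0.45 (SE 0.378). The B cell survival factors TNFSF13B (BAFF) and TNFSF13 (APRIL) had 0.11 (SE 0.201) and 0.08 (SE 0.101). For CD40LG, 23.8% of all counts came from 2 dogs.

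TNF itself was scarce. It had 0.285 ± 0.27 CPM (SD, n = 15) with CHF and 0.264 ± 0.229 CPM (SD, n = 19) without it, with 3 dogs at 0 counts. The log2 fold change was 0.01 (SE 0.513), and the approximate interval reached from -0.99 to 1.02, so a difference within it was not detectable at this depth. LTB, the membrane lymphotoxin, had -0.80 (SE 0.545), with 29.4% of its counts from 2 dogs. FASLG, the ligand that kills cells through FAS, had 0.92 (SE 0.645). TNFSF11 (RANKL), which drives osteoclasts, had 80 counts in the dogs with CHF, 227 in the others and 10 dogs at 0 counts. Its log2 fold change was -1.24 (SE 0.769). Single dogs moved these values: leaving out CAV1097 gave -2.20 for TNFSF11, leaving out CAV743 gave -0.33 for LTB, and leaving out CAV828 gave 0.52 for FASLG. All of TNF and LTB lie inside the span of the HLA-C feature, and LTB shares its strand, so the reads of these genes were also counted there.

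TNFSF12 (TWEAK), the ligand of TNFRSF12A, had a log2 fold change of 0.03 (SE 0.107) at 27.4 ± 4.73 CPM (SD, n = 15) and 27.1 ± 6.59 CPM (SD, n = 19). EDA, which is best known from hair and tooth development, had -0.06 (SE 0.113). TNFSF15, the ligand of TNFRSF25, had 0.10 (SE 0.318), with a within-group SD of 1.04 log2 units.

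Among the receptors, TNFRSF4, the partner of TNFSF4, was almost undetected. It held 168 counts over all 34 dogs, and 18 dogs had 0 counts. The levels in 10y-MMVD-CHF were 0 CPM at the lowest, 0.0728 at the median and 0.438 at the highest, and in 10y-noCHF they were 0, 0 and 0.219. Reads were seen in 11 of the 15 dogs with CHF and 5 of the 19 without. On the log2 scale the difference was 1.62 (SE 0.764, FDR = 0.778). The gene had 118 counts in the dogs with CHF and 50 in the others, so it reached the minimum of 100 counts only through the group where it was higher, and its unadjusted p supports nothing. The highest counts were 32 in a dog with CHF and 17 in a dog without, and a value this low moves with few reads. Across dogs TNFRSF4 was set against the T cell marker mean, with a Spearman rho of 0.399 (permutation p = 0.0201, FDR = 0.0992). It was 0.292 (permutation p = 0.102) without the 2 farthest dogs, 0.231 (permutation p = 0.309) within 10y-noCHF and 0.369 (permutation p = 0.174) within 10y-MMVD-CHF.

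LTBR, the receptor of lymphotoxin and TNFSF14, was the receptor with the smallest spread, a within-group SD of 0.12 log2 units. It ranged from 83.2 CPM over a median of 96.4 to 108 CPM in 10y-MMVD-CHF, and from 71.9 over 91.1 to 98.3 CPM in 10y-noCHF. The log2 fold change was 0.10 (SE 0.0445, edgeR p = 0.0392, FDR = 0.778), and the groups overlapped, with 8 of 15 10y-MMVD-CHF dogs above the 10y-noCHF median.

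TNFRSF12A, the receptor of TWEAK, was the most abundant receptor per length among the members with canine exon features, at 69.5 ± 17.2 CPM per kb (SD, n = 34). It had 37.4 CPM at the lowest, 67.7 at the median and 117 at the highest in 10y-MMVD-CHF, and 39.7, 70.1 and 109 CPM in 10y-noCHF. The groups overlapped, with a log2 fold change of -0.06 (SE 0.114). All of its exons lie inside the span of ZNF213 on the same strand. LTBR, TNFRSF1B and TNFRSF1A, with means of 91.7, 76.2 and 69.0 CPM over all dogs, have no canine exon feature and were not ranked.

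The remaining TRAF-binding receptors had an edgeR p above 0.05. TNFRSF1B, the TNF receptor of leukocytes and endothelium, had 79.6 ± 41.3 CPM (SD, n = 15) and 73.6 ± 28.4 CPM (SD, n = 19), a log2 fold change of 0.13 (SE 0.242). CD40 had 0.01 (SE 0.149), TNFRSF14 (HVEM) 0.02 (SE 0.133), TNFRSF19 (TROY) 0.01 (SE 0.144) and TNFRSF11A (RANK) -0.08 (SE 0.148). The B cell receptors TNFRSF13C, which binds BAFF, and TNFRSF13B, which binds BAFF and APRIL, had -0.05 (SE 0.161) and -0.10 (SE 0.174). TNFRSF17 (BCMA), the third of them and a plasma cell receptor, had -1.62 (SE 0.801, edgeR p = 0.0516), with 19 dogs at 0 counts and 39.7% of its counts from 2 dogs. It had 24 counts in the dogs with CHF and 102 in the others. Like TNFRSF4, TNFRSF17 reached the minimum count for testing only through the group where it was higher, so its unadjusted p supports nothing. TNFRSF18 had 0.52 (SE 0.329), CD27 -0.01 (SE 0.552) and TNFRSF8 (CD30) 0.49 (SE 0.626).

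None of the 5 receptors with a death domain passed the FDR threshold or had an edgeR p below 0.05. TNFRSF1A, the main TNF receptor of tissue cells, had 71.7 ± 11.2 CPM (SD, n = 15) and 66.9 ± 8.16 CPM (SD, n = 19), a log2 fold change of 0.10 (SE 0.0733). TNFRSF21 (DR6), whose feature has parts on 2 chromosomes, had 0.06 (SE 0.106), TNFRSF25 (DR3) -0.13 (SE 0.192) and NGFR, the low-affinity neurotrophin receptor, 0.16 (SE 0.201). EDAR had -0.80 (SE 0.863) with 18 dogs at 0 counts. Of the soluble decoys, TNFRSF11B (osteoprotegerin), which binds RANKL and TRAIL, had 0.06 (SE 0.179) at 41.2 and 39.6 CPM, and TNFRSF6B had 0.12 (SE 0.375). The TNFRSF6B feature lies inside 3 other features, and 48.4% of NGFR is covered by NGFR-AS1 on the opposite strand, which the unstranded counts cannot tell apart.

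**Figure D3:**
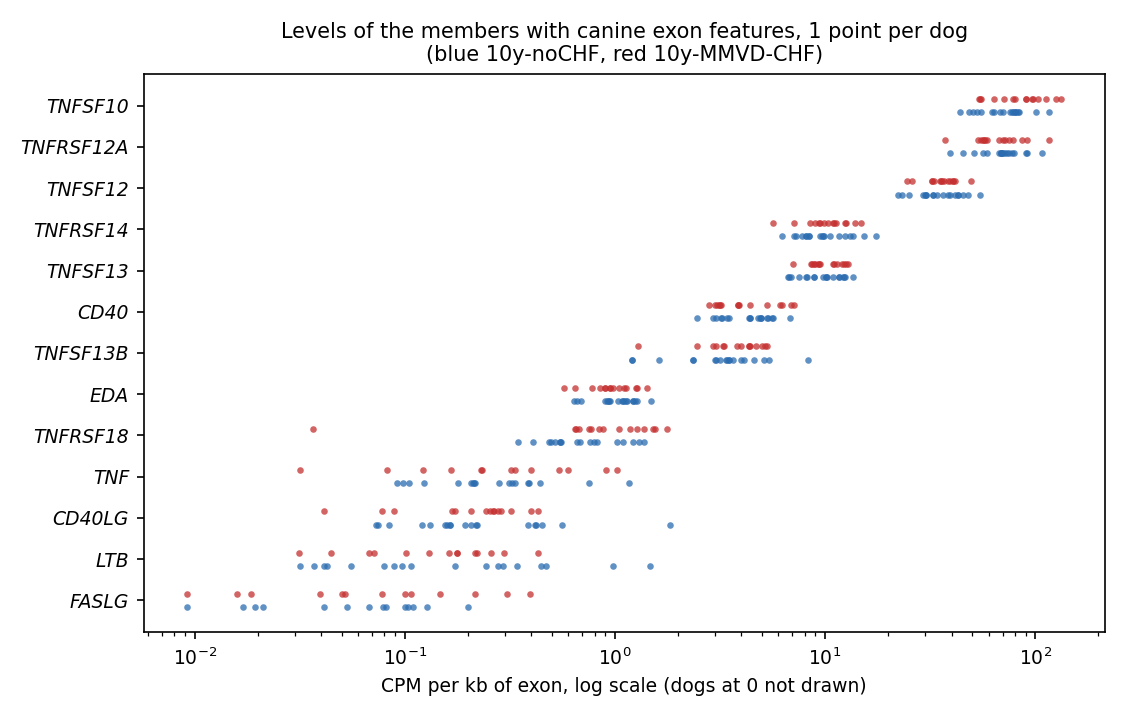
CPM per kb of exon (x axis, log scale) of the 13 tested members with a canine exon feature, 1 point per dog and 1 row per gene, blue 10y-noCHF and red 10y-MMVD-CHF. TNFSF10 and TNFRSF12A lead at means of 78.9 and 69.5, and TNF, CD40LG, LTB and FASLG lie under 1 in nearly all dogs. The groups overlap for each gene.

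Per length, members could be compared only among the canine RefSeq features, which count exons, and not with the XenoRefSeq spans. TNFSF10 and TNFRSF12A were the highest, at 78.9 and 69.5 CPM per kb, and the difference between them was not tested. TNFSF12 followed at 35.9 CPM per kb, then TNFRSF14 at 10.3 with TNFSF13 just under it, CD40 at 4.39 and TNFSF13B at 3.65. EDA had 1.01 and TNFRSF18 0.841 CPM per kb. TNF was at 0.318, CD40LG at 0.28, LTB at 0.225 and FASLG at 0.0754 CPM per kb.

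The genes downstream of the receptors were read from 4 lists, and none of their genes passed the FDR threshold with edgeR. Unadjusted edgeR p-values below 0.05 were held by 7.69% of the adaptors and cell death regulators and 7.69% of the NF-kB genes. For the TNF-responsive genes the share was 10% and for the co-stimulation and type 2 genes 6.25%, beside 6.31% of all features. Of the adaptors and cell death regulators, 26 were tested, 13 of them below 0 and 13 above, with a median log2 fold change of 0.0021. TRAF6, an adaptor of CD40 and RANK, had 0.16 (SE 0.0577, edgeR p = 0.00882, FDR = 0.584), with 13 of the 15 dogs with CHF over the median of the dogs without. FADD, the death domain adaptor, had 0.20 (SE 0.0825, edgeR p = 0.023). All 26 lay within 0.2 of 0, as did 14944 of the 19568 features. Of the 13 NF-kB genes, 7 were below 0 and 6 above, with a median of -0.0245 and 12 of them within 0.2 of 0. The exception, NFKBIA, the inhibitor that NF-kB itself induces, had 86.7 ± 19.1 CPM (SD, n = 15) and 103 ± 20.8 CPM (SD, n = 19), a log2 fold change of -0.28 (SE 0.0954, edgeR p = 0.00538, FDR = 0.48).

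Of the 20 TNF-responsive genes tested, 14 were below 0 and 6 above, with a median of -0.091. CXCL8, a chemokine for neutrophils, had a median of 3.64 CPM with CHF and 6.82 CPM without. Its means were 3.98 ± 2.47 CPM (SD, n = 15) and 9.68 ± 13.2 CPM (SD, n = 19), and the highest dog without CHF had 61.5 CPM. The difference was -1.21 on the log2 scale (SE 0.402, edgeR p = 0.00489, FDR = 0.48), with 14 of the 15 dogs with CHF under the median of the others. VCAM1, an endothelial adhesion molecule, had 0.40 (SE 0.194, edgeR p = 0.0462, FDR = 0.779). Of the 20 genes, 10 lay within 0.2 of 0, beside 14944 of the 19568 features. ICAM1, SELP and CCL2 were among these 10, at -0.02, 0.02 and -0.06. Farther out, at low levels, CSF2 had -1.2, MMP9 -1.11 and IL6 0.56, each with an edgeR p above 0.05. Of the 16 tested genes of co-stimulation and the type 2 axis, in which OX40 ligand acts together with TSLP, 8 were below 0 and 8 above. Within 0.2 of 0 lay 6 of these 16. TSLP, an epithelial and stromal cytokine that induces OX40 ligand on dendritic cells, had 1.14 ± 0.455 CPM (SD, n = 15) and 1.87 ± 0.676 CPM (SD, n = 19). Its log2 fold change was -0.72 (SE 0.196, edgeR p = 0.000825), which missed the threshold with edgeR (FDR = 0.323) and passed it with DESeq2 (FDR = 0.0833). The median of the dogs without CHF was above 14 of the 15 dogs with CHF. Among the fits that each left out a single dog, only that without CAV614 brought the edgeR FDR of TSLP under the threshold (FDR = 0.0889). Without both CAV614 and CAV1047 it was 0.117.

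Ligands were then set against their own receptors across dogs. Over 19 pairs with both members tested, after removal of the group and sex means, 0 had an FDR below 0.1 for both r and rho, and by unadjusted permutation p below 0.05 only TNFSF15 and TNFRSF25 did. Their r was 0.442 (permutation p = 0.0138, FDR = 0.262) and rho 0.454 (permutation p = 0.0103, FDR = 0.196), and leaving out the 2 dogs farthest from the median gave an r of 0.488. TNFSF4 and TNFRSF4 had an r of 0.222 (permutation p = 0.23) and a rho of 0.188 (permutation p = 0.311).

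Members that lie next to each other on a chromosome were compared in the same way over 10 pairs. TNFSF12 and TNFSF13, whose features are 1600 bases apart on chromosome 5, had an r of 0.747 (permutation p = 2e-05, FDR = 0.0002) and a rho of 0.733 (permutation p = 2e-05). Within the 10y-noCHF dogs r was 0.831 and within the 10y-MMVD-CHF dogs 0.593, where rho was 0.421 (permutation p = 0.127), and leaving out the 2 farthest dogs gave 0.709. Both lie inside a readthrough feature, TNFSF12-TNFSF13. TNFSF15 and TNFSF8, 62547 bases apart on chromosome 11, had an r of 0.576 (permutation p = 0.00115, FDR = 0.00575) and a rho of 0.583 (permutation p = 0.00093). Their r was 0.463 within 10y-noCHF, 0.724 within 10y-MMVD-CHF and 0.573 without the 2 farthest dogs.

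**Figure D4:**
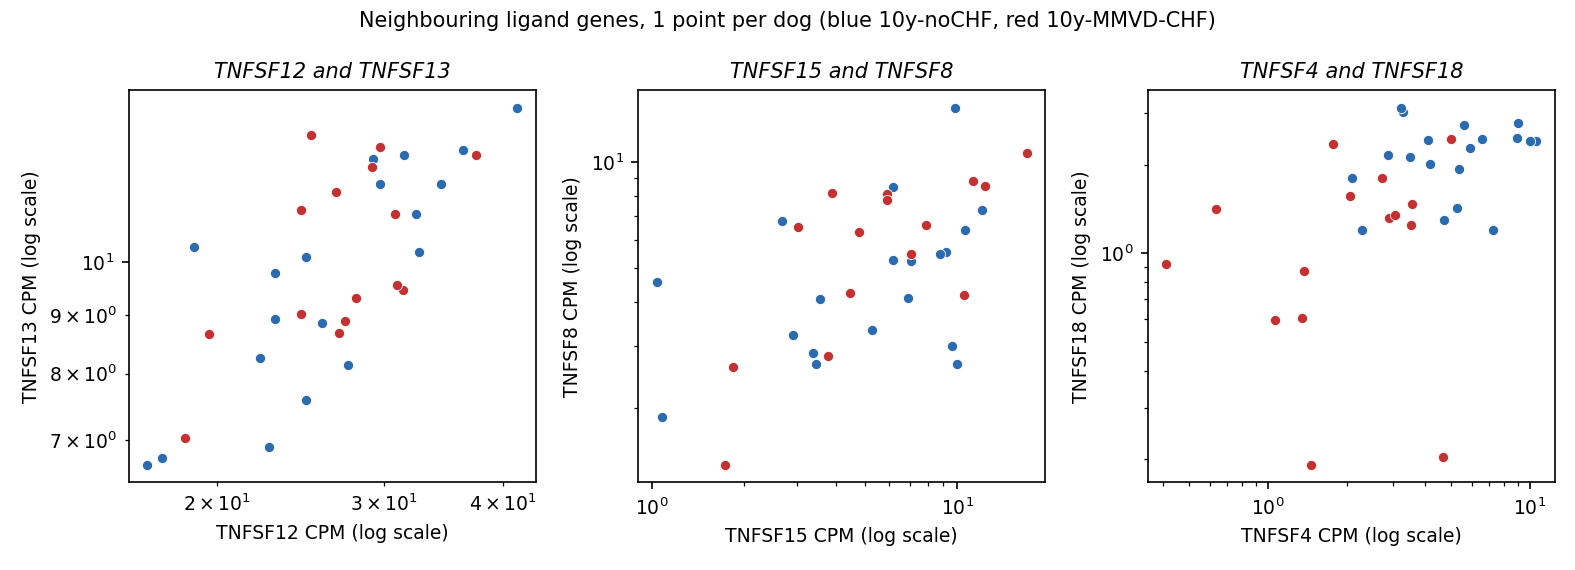
CPM of 3 pairs of neighbouring ligand genes (both axes log scale), 1 point per dog, blue 10y-noCHF and red 10y-MMVD-CHF. TNFSF12 and TNFSF13 tend to be high in the same dogs (r = 0.747 after removal of the group and sex means), TNFSF15 and TNFSF8 less so (r = 0.576), and for TNFSF4 and TNFSF18 the groups overlap and r is 0.126.

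The members were also set against the mean log2 CPM of 10 lists of cell type markers, 370 relations in all, and 72 had an FDR below 0.1 for both r and rho. The points share a library, and all values of a library are relative to its total. The macrophage list had 14 positive relations. TNFRSF14 had the highest, with an r of 0.824 (permutation p = 1e-05) and a rho of 0.805, and r was 0.835 within 10y-noCHF, 0.807 within 10y-MMVD-CHF and 0.81 once the 2 farthest dogs were left out. TNFSF9 had an r of 0.718, CD27 0.718, TNFSF13B 0.649 and TNFSF10 0.641 with the same list, each with an FDR below 0.1 for rho as well. TNFSF9 and TNFSF13B are made by myeloid cells, whereas CD27 is a lymphocyte receptor, and it also had an r of 0.641 with the T cell list.

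The T cell list had 7 positive relations, led by CD40LG with an r of 0.669 (permutation p = 0.00052) and a rho of 0.525 (permutation p = 0.00249), and by TNFSF8 with an r of 0.656 (permutation p = 0.00053) and a rho of 0.539 (permutation p = 0.00311). The r values were 0.419 and 0.472 when the 2 dogs at the extremes of the marker mean were left out. The list of valve interstitial cells had 8 positive relations, and TNFRSF19 had the highest r at 0.642 (permutation p = 0.0001), with 0.586 within 10y-noCHF, 0.717 within 10y-MMVD-CHF and 0.617 without the 2 farthest dogs. The Schwann cell list had 10 negative relations and 1 positive one, that of NGFR, at an r of 0.547 (permutation p = 0.00145) and a rho of 0.531 (permutation p = 0.00245), with r values of 0.677 within 10y-noCHF, 0.276 within 10y-MMVD-CHF and 0.431 without the 2 farthest dogs. NGFR also had an r of 0.529 and a rho of 0.508 with the adipocyte list (FDR 0.0198 and 0.0325). The cardiomyocyte list had 10 relations, all negative, of which TNFRSF19 at -0.665 and TNFSF13 at -0.651 were the farthest from 0. Within one group alone, where fewer dogs were compared, fewer relations passed both thresholds, 29 in 10y-noCHF (n = 19) and 0 in 10y-MMVD-CHF (n = 15). Several r values were nevertheless as high or higher within 10y-MMVD-CHF, such as that of TNFRSF19 above, and others, such as that of NGFR, were lower.

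**Figure D5:**
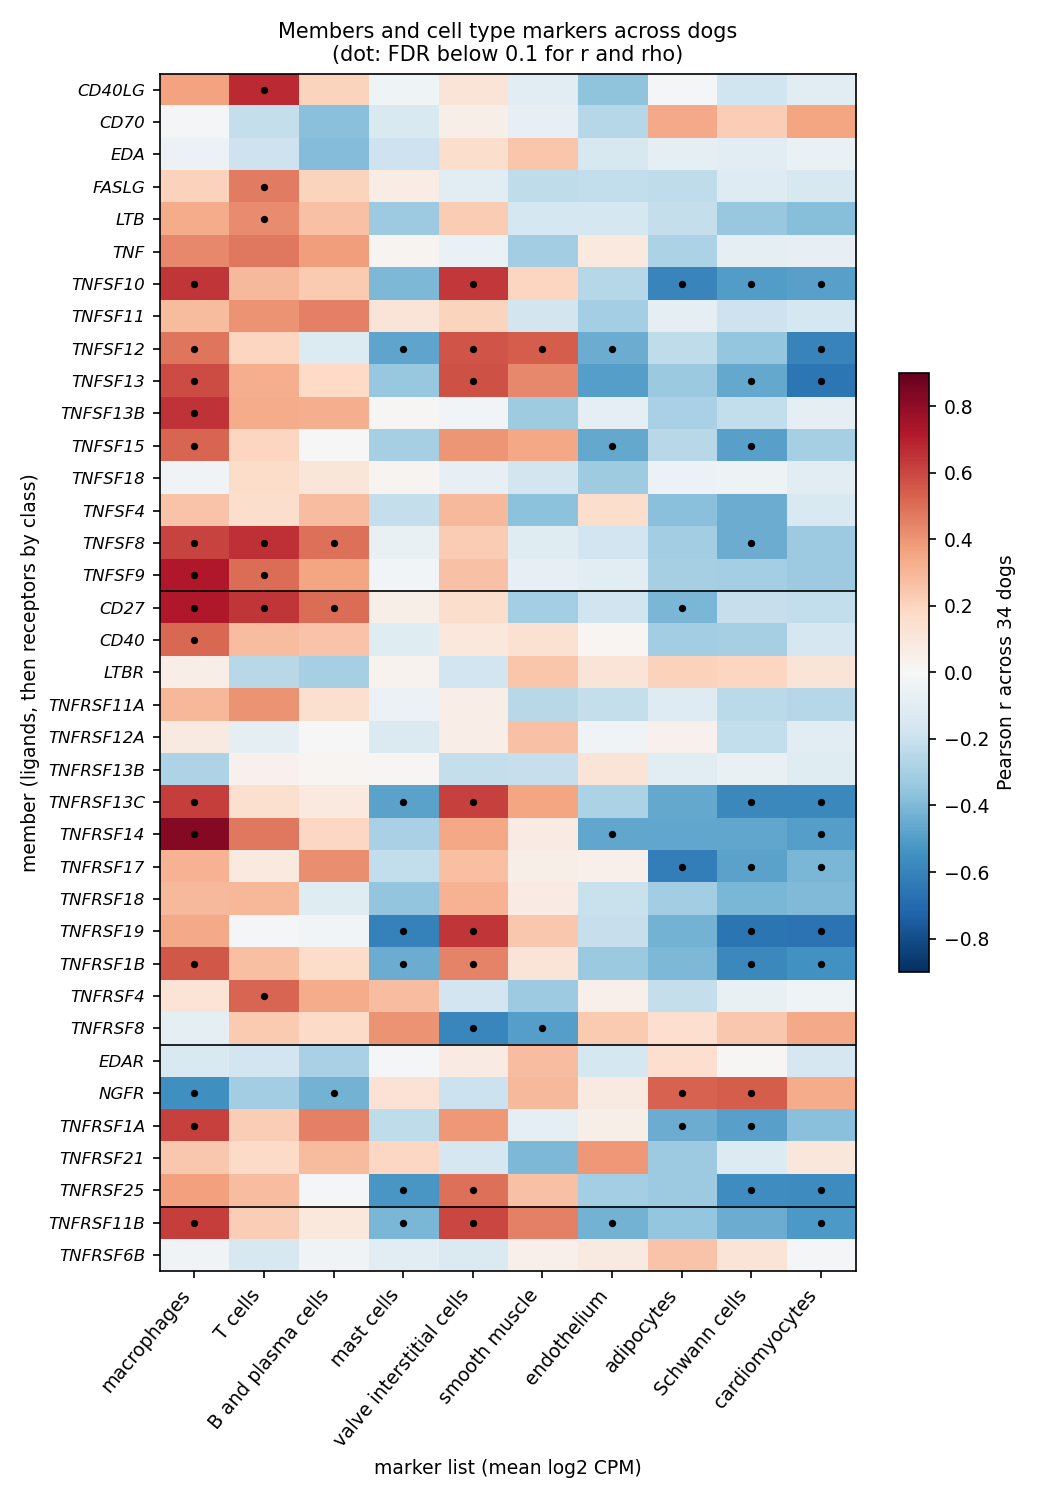
Pearson r across 34 dogs (colour) between each of the 37 tested members (rows) and the mean log2 CPM of each marker list (columns), after removal of the group and sex means. Dots mark the 72 relations with an FDR below 0.1 for r and rho, which crowd in the macrophage, valve interstitial cell, Schwann cell and cardiomyocyte columns, while the rows of TNFSF4 and TNFSF18 hold none.

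TNFSF4 had no relation with an FDR below 0.1 for both measures. Its r was 0.293 with valve interstitial cells, 0.155 with endothelium, 0.259 with macrophages and 0.159 with T cells. It was -0.379 with adipocytes (permutation p = 0.031, FDR = 0.115) and -0.37 with smooth muscle (permutation p = 0.0298, FDR = 0.112). The farthest from 0 was -0.445 with the Schwann cell list (permutation p = 0.0101, FDR = 0.0583), and rho there was -0.377 with an FDR of 0.127. With the mean of the cardiomyocyte, T cell or endothelial markers as a further term in the fit, TNFSF4 still passed the FDR threshold, at log2 fold changes of -1.32, -1.35 and -1.40. Those are lists that TNFSF4 followed little, and the Schwann cell, adipocyte and smooth muscle lists were not fitted as terms.

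The features whose levels followed TNFSF4 most closely across dogs, by Spearman rho after removal of the group and sex means, were NID2 at 0.799, THBD at 0.797, EMP1 at 0.772, LMLN at 0.763 and the canine feature of THBD at 0.761, among 16171 features with a mean of at least 1 CPM. This is a description of the 34 dogs. NID2 is a basement membrane protein and THBD (thrombomodulin) an anticoagulant receptor of endothelium. With the endothelial marker mean, rho was 0.017 for NID2, 0.0457 for EMP1 and -0.0552 for LMLN. For THBD it was 0.338, and 0.381 on its canine feature. For NID2 rho was 0.847 among 10y-noCHF dogs and 0.732 among 10y-MMVD-CHF dogs. None of the 5 passed the FDR threshold between the groups, with log2 fold changes from -0.31 to -0.08 and edgeR FDR values of 0.848 or more. With the mean of NID2 and THBD as a further term, chosen after these values were seen, TNFSF4 had a log2 fold change of -1.03. Features chosen for following TNFSF4 narrow its residual spread by construction, so the p of that fit is no support. Without dogs CAV614 and CAV1047, also left out after the values were seen, the log2 fold change was -1.20 with an FDR of 0.0481.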

How the data were processed

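Poly-A RNA of 34 mitral valves was sequenced as read pairs. STAR alignments to canFam4 were counted by the authors with featureCounts 2.0.3, and these counts were deposited without normalization. A read adds to each feature that it overlaps, strand is ignored, and both reads of a pair count (71.3% of counts above 0 were even). The deposited feature length was used for CPM per kb. A column of 1 dog without a sample in the series was not used. Features summing to 100 counts or more entered edgeR 4.0.16 in R 4.3.3, with TMM scaling, the quasi-likelihood test, a term for sex and an FDR limit of 0.1. The study's tool, DESeq2 1.42.0, limma 3.58.1 voom, other filters, normalizations and terms, and leaving out each dog were alternatives. Of 13 members with 2 features, the canine RefSeq one was used. CPM are TMM-scaled, log2 CPM used a prior count of 0.5, and correlations were tested with 100000 permutations within group and sex. Ranks came from scipy 1.17.1 and permutations from numpy 2.4.6. The counts of relations under alternatives used fewer permutations, and without removal of the means all dogs were permuted together. Total counts were 46185256 to 82361245 per dog, and members under 1 CPM rest on few counts. Dogs are separate samples, so the p-values measure the spread between dogs. The scripts were tested on simulated data. Members, marker lists and pathway lists were chosen with earlier results of these data known. The male and female difference, the neighbouring pairs, the NID2 and THBD term and the fit without CAV614 and CAV1047 were added after seeing the data. All tested members are named, and full values go to those with p below 0.05 and to TNFRSF4. They also go to the most abundant ligand and receptor per length among the members with canine exon features. Gene names were matched to the RefSeq annotation of the same assembly for all 39 members, by symbol only. Some XenoRefSeq spans do not have the bounds of the gene. The LTBR span starts at 7478969 and the gene at 7487407. The TNFRSF13C span ends at 24393850 and the gene at 24392339, and the TNFRSF1B span ends at 83625438 and the gene at 83643630. The study's own fold changes were not used.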

Additional observations from a re-analysis of the deposited data

Results flagged for a closer look

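Of 28 groups of 6 to 10 dogs of 1 sex tested for a dog apart from the others, over the 7 members described in most detail, 5 held such a dog, and chance marks about 1 in 20 groups. Each was the lowest dog of its group, and the value given is its gap to the next dog divided by the range of the group. For TNFSF18, CAV1519 among the female 10y-MMVD-CHF dogs had -2.32 log2 CPM with the next dog at -0.181, a gap of 0.717. For CD70, CAV614 among the male 10y-MMVD-CHF dogs had a gap of 0.729 and CAV1939 among the male 10y-noCHF dogs one of 0.604, at -4.72 and -4.55 log2 CPM. For LTBR, CAV576 among the female 10y-noCHF dogs had a gap of 0.531, and for TNFRSF12A, CAV1876 among the female 10y-MMVD-CHF dogs had one of 0.644. No such dog was found for TNFSF4, TNFSF10 or TNFRSF4. The cause was not tested.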

How the results depend on the processing

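TNFSF4 log2 fold change kept its direction under every alternative run. It missed the FDR threshold without a sex term (-1.21, FDR 0.105), in females only (-1.54, FDR 0.196) and in males only (-1.19, FDR 0.578), where 0 members were called, and fewer dogs were compared in the last 2. Leaving out each dog gave -1.47 to -1.26. With DESeq2, and without CAV614, 1 pathway gene (TSLP) was called. Neighbouring pairs past both thresholds were 1 within 10y-noCHF, 1 within 10y-MMVD-CHF and 3 without removal of the means, against 2, and marker relations were 29, 0 and, without the 2 farthest dogs, 32, against 72. Each group alone holds fewer dogs. The r of TNFSF4 and TNFRSF4 was -0.197 without removal of the means. Of the 37 members, TNFSF4 included, 16 never changed sign, and the cause of the changes in the others was not tested. With voom, log2 fold changes turned to 0.01 for CD27, -0.07 for CD40, -0.15 for TNF, -0.02 for TNFRSF11B, 0.0018 for TNFRSF13C, -0.05 for TNFRSF1B, -0.30 for TNFRSF6B and -0.01 for TNFSF15. With upper quartile scaling they were -0.0024 for CD40 and -0.0033 for TNFRSF19 (all values are log2). CD27 was 0.10 with the T cell term, 0.40 with the endothelial term and 0.01 with counts halved. TNF was -0.04 and TNFRSF13C 0.01 with the endothelial term, and TNF -0.0024 with the cardiomyocyte term. In females only the values were CD27 0.81, EDA 0.10, TNF -0.06, TNFRSF13C 0.02, TNFRSF1B -0.02, TNFRSF6B -0.52, TNFSF12 -0.02, TNFSF13 -0.12 and TNFSF15 -0.01. In males only they were CD40 -0.23, NGFR -0.05, TNFRSF11A 0.04, TNFRSF11B -0.07, TNFRSF13B 0.03, TNFRSF14 -0.09, TNFRSF19 -0.11, TNFRSF25 0.07, TNFRSF8 -0.17, TNFSF13B -0.11 and TNFSF9 0.02. With NID2 and THBD as a term they were CD27 0.05, TNFRSF13C 0.04, TNFRSF6B -0.23 and TNFSF12 -0.01. Without CAV614 and CAV1047 they were CD27 0.02, CD40 -0.03, TNF -0.02 and TNFRSF6B -0.006. TNFSF12 was -0.03 on its XenoRefSeq feature. Leaving out each dog, CD27 ranged from -0.26 to 0.57, CD40 from -0.06 to 0.06, CD40LG from -0.57 to 0.04, TNF from -0.21 to 0.24, TNFRSF11B from -0.02 to 0.12, TNFRSF13C from -0.11 to 0.01, TNFRSF14 from -0.03 to 0.09, TNFRSF19 from -0.05 to 0.07, TNFRSF6B from -0.10 to 0.26, TNFSF12 from -0.01 to 0.07, TNFSF15 from -0.05 to 0.19 and TNFSF9 from -0.16 to 0.01. Other rare members moved by over 1.5 times with no change of sign, such as TNFRSF8 (0.49), which had 0.15 without CAV1872, and EDAR (-0.80), which had -1.34 without CAV1259. No paired analysis was possible because each dog is in 1 group and replicate numbers only name dogs.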
